A study of Mus musculus with 7 samples.

Results

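The insulin-like growth factor (IGF) system was represented by 10 genes, chosen by name: the ligands Igf1 and Igf2, the receptors Igf1r and Igf2r, and the binding proteins Igfbp2 to Igfbp7. They are 10 of the 32531 gene symbols listed, and all 10 passed the filter on low counts. The libraries came from the midbrain of adult, untreated control mice of the Stard8-EGFP/Rpl10a line ES2342, a transgenic line in which regulatory sequence of Stard8 drives the ribosomal protein Rpl10a fused to the fluorescent protein EGFP. Antibodies against EGFP on magnetic beads pulled tagged ribosomes with their RNA from the homogenate, a method called translating ribosome affinity purification (TRAP). The 2 groups were the purified fraction, called IP, with 3 libraries numbered 1, 2 and 4, and the RNA left behind in the homogenate, called unbound, with 4 libraries numbered 1 to 4. Both groups came from the same transgenic line, and whether each library is a separate mouse or a pool is not given in the sources used here, so the p-values measure only the spread between these libraries.

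IGF1 and IGF2 are secreted peptides that act through the IGF1 receptor, a tyrosine kinase related to the insulin receptor. The IGF2 receptor, also the receptor for mannose 6-phosphate, carries IGF2 to lysosomes and has no kinase. Most IGF in body fluids is held by binding proteins, which prolong its life and limit its access to the receptor, and IGFBP7 is a more distant relative that binds IGFs weakly and lies in vessel walls. In the adult brain IGF2 is known from the choroid plexus and the meninges, and IGF1 from several cell types, including neurons and microglia.

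The submitters describe the tagged cells as neurons, and the marker genes went against that. Levels are given as counts scaled to library size (CPM, the reads of a gene per 1e+06 reads), scaled between libraries by the trimmed mean of M-values (TMM). Stard8 itself had 388, 440 and 227 CPM in IP 1, 2 and 4 against 3.51 to 4.89 CPM in unbound. Rpl10a had 282 to 358 CPM in IP and 40.5 to 326 CPM in unbound and did not pass the test (adjusted p = 0.142). Differences were tested with edgeR's quasi-likelihood test and adjusted by Benjamini-Hochberg over all 17654 genes tested, with a threshold of 0.05. All 10 endothelial and all 10 pericyte and smooth muscle markers rose in IP, with median log2 fold changes of 6.93 and 6.48, as did all 10 microglia and macrophage markers (4.36). All 10 neuronal markers (median -1.70) and 9 of 10 oligodendrocyte markers (-2.47) fell. Summed over its 10 markers, the neuronal level was 3361 and 3697 CPM in IP 1 and 2, 7512 in IP 4 and 12696 to 20330 in unbound. In such bulk RNA, a difference in the number of cells and a difference in RNA per cell cannot be told apart. The sequencing lane in the labels was 2 or 5 for IP and 1 or 3 for unbound, so lane and group cannot be told apart either.

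Igf2, Igf1r, Igfbp4 and Igfbp7 were higher in IP, Igf2r was lower, and the other 5 members did not pass the test. The 4 higher members compare with 20.5% of all tested genes that were called higher, and the 1 lower member with 18.9% called lower. In the same 4 genes every IP library lay above every unbound library, which was so for 25.1% of all genes, and no member had every IP library below every unbound one (22.7% of all genes). The median log2 fold change was 0.33 over the 10 members and -0.10 over all genes tested. The members were chosen with earlier results of these data known, so these counts describe them and support nothing further.

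**Figure D1:**
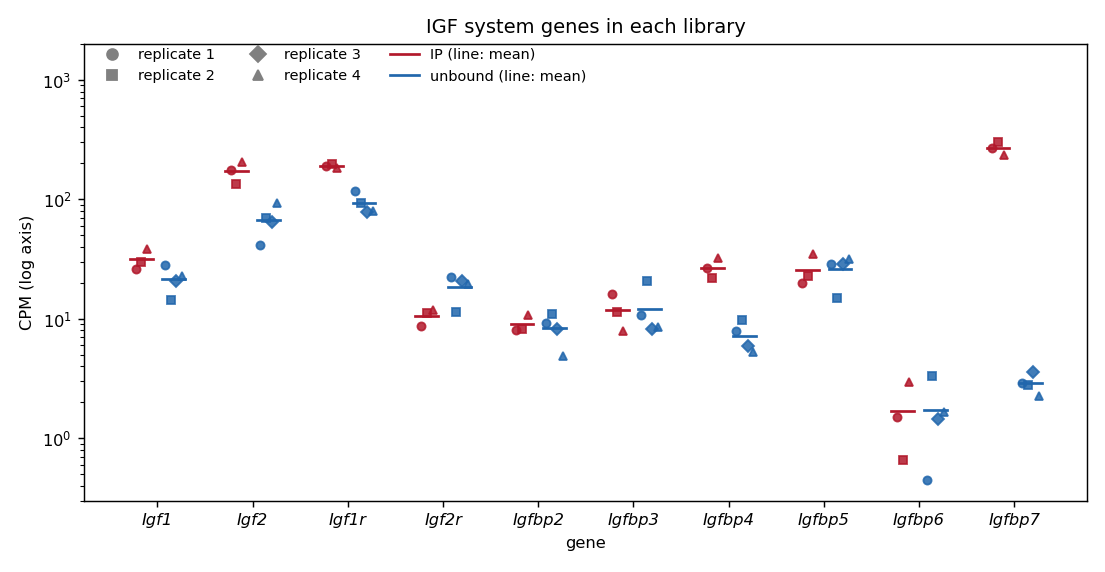
CPM of the 10 IGF system genes in each of the 7 libraries on a log axis; symbols mark the replicate number, colours the group and short lines the group means. Igfbp7 sits between 235 and 304 CPM in IP and between 2.26 and 3.61 CPM in unbound, while Igfbp2, Igfbp3, Igfbp5 and Igfbp6 overlap between the groups.

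The stretches of genome just before the starts of 4 genes are shown because these genes moved in different ways: Igfbp7 rose most, Igfbp4 and Igf1r rose, and Igf2r fell. Each is the 250 bases before the RefSeq start on GRCm38.p6, read 5′ to 3′ on the gene's strand, with no base in a GENCODE exon. For Igf1r the RefSeq and GENCODE starts differ: the window ends at 67952256, and the GENCODE gene starts at 67952827. Capitals mark matches, on either strand, to a TATA box (TATAAA), a GC box (GGGCGG) or an E-box (CACGTG).
Igfbp7, chr5:77408046-77408295, minus strand: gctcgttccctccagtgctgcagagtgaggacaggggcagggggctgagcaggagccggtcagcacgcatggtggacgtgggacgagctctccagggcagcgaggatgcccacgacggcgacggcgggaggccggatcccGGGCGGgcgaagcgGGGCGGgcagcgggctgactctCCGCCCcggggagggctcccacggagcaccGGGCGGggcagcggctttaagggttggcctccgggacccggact
Igfbp4, chr11:99040994-99041243, plus strand: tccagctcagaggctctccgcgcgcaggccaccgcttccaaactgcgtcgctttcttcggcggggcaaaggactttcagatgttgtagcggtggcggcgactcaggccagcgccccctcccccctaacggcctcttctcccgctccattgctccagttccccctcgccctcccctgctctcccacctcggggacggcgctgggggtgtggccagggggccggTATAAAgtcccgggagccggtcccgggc
Igf1r, chr7:67952007-67952256, plus strand: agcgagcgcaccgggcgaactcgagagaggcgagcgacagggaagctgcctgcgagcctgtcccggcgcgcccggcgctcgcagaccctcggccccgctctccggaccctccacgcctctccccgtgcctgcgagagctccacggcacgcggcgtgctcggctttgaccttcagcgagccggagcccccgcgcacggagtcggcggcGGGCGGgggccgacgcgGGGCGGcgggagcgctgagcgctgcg
Igf2r, chr17:12769707-12769956, minus strand: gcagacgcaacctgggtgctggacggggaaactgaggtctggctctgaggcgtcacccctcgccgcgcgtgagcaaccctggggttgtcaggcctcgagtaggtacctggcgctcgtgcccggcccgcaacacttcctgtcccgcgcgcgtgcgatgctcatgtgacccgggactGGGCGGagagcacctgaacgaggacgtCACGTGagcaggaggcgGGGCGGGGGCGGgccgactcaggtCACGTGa
All 4 windows were rich in CG pairs, with 26 in Igfbp7, 22 in Igfbp4, 42 in Igf1r and 27 in Igf2r against a median of 6 over the 32851 RefSeq windows of the same length. The GC box matched 4 times in Igfbp7, 2 times in Igf1r and 3 times in Igf2r, and 32.7% of all windows held at least 1. Igfbp4 had no GC box but a TATA box whose first base lay at -28 from the start, and 12.4% of all windows held a TATA box at any position. Igf2r had 2 E-boxes, present in 6.02% of windows. The core of the ETS motif (CCGGAA, 12% of windows) and a forkhead site (GTAAACA, 3.17%) were searched on both strands as well and matched in none of the 4. A match is a description of the letters and shows no bound factor.

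Igfbp7, the binding protein of vessel walls, had the largest difference of the 10 members. It measured 267, 304 and 235 CPM in IP 1, 2 and 4, and 2.92, 2.82, 3.61 and 2.26 CPM in unbound 1 to 4. The groups did not overlap, and the lowest IP library was IP 4. The fitted difference was 92.7-fold, a log2 fold change of 6.53 ± 0.27 (SE), with a 95% interval of 5.93 to 7.13 (adjusted p = 3.43e-07). It ranked 194th from the top of the 17654 genes tested, beside Stard8 at 215th with 6.38 ± 0.31. The gene lies on chromosome 5 from 77349240 to 77408041 (GRCm38, minus strand). The summed endothelial markers were also lowest in IP 4, at 2079 CPM against 2870 and 2851 in IP 1 and 2, as were the summed pericyte and smooth muscle markers (3142 against 4290 and 4510), and the part of these cells in the Igfbp7 level was not tested.

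Igfbp4, a binding protein that the protease PAPP-A cleaves, had the next largest rise. Its level was 26.4, 21.8 and 32.4 CPM in IP 1, 2 and 4 and 7.92, 9.74, 5.96 and 5.26 CPM in unbound 1 to 4. The lowest IP library lay above the highest unbound library. The log2 fold change was 1.90 ± 0.29 (adjusted p = 0.000584), a 3.72-fold difference. Within the libraries with index ACAGTG (IP 1 and 2, unbound 1 and 2) it was 1.45 (adjusted p = 0.0345). Within index GTGAAA it was 2.55, a value from IP 4 alone against unbound 3 and 4. Igfbp4 lies on chromosome 11 from 99041244 to 99054392 (plus strand).

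The remaining 4 binding proteins showed no called difference. Igfbp2, which is known from the choroid plexus, meninges and astrocytes, had 8.0, 8.17 and 10.9 CPM in IP 1, 2 and 4 and 9.32, 10.9, 8.20 and 4.92 CPM in unbound 1 to 4. Igfbp3, the main carrier of IGFs in blood, had 16.2, 11.3 and 7.94 CPM in IP and 10.7, 20.6, 8.26 and 8.47 CPM in the unbound libraries. Igfbp5, which binds to extracellular matrix, had 19.8, 23.1 and 34.7 CPM in IP and 28.9, 14.9, 28.6 and 31.6 CPM in unbound. In all 3 genes the ranges of the groups overlapped, and in Igfbp3 and Igfbp5 it was unbound 2 that lay apart from the other unbound libraries. Igfbp6, which prefers IGF2 over IGF1, had 1.49, 0.66 and 2.97 CPM in IP and 0.45, 3.30, 1.46 and 1.68 CPM in unbound. Its counts ran from 36 to 192, and the spread within each group was nearly as wide as the whole range.

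The log2 fold changes of these 4 were 0.11 ± 0.33 for Igfbp2, -0.02 ± 0.39 for Igfbp3, -0.01 ± 0.31 for Igfbp5 and -0.01 ± 0.74 for Igfbp6 (adjusted p between 0.818 and 0.992). The 95% intervals were -0.63 to 0.85 for Igfbp2, -0.88 to 0.84 for Igfbp3 and -0.70 to 0.68 for Igfbp5. Changes of any size within these bounds are compatible with the data. For Igfbp6 the interval was -1.64 to 1.62. Igfbp2 and Igfbp5 are neighbours on chromosome 1, on opposite strands and 5457 bases apart. The signs of these 4 values changed between alternative analyses, none of which called any of them.

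**Figure D2:**
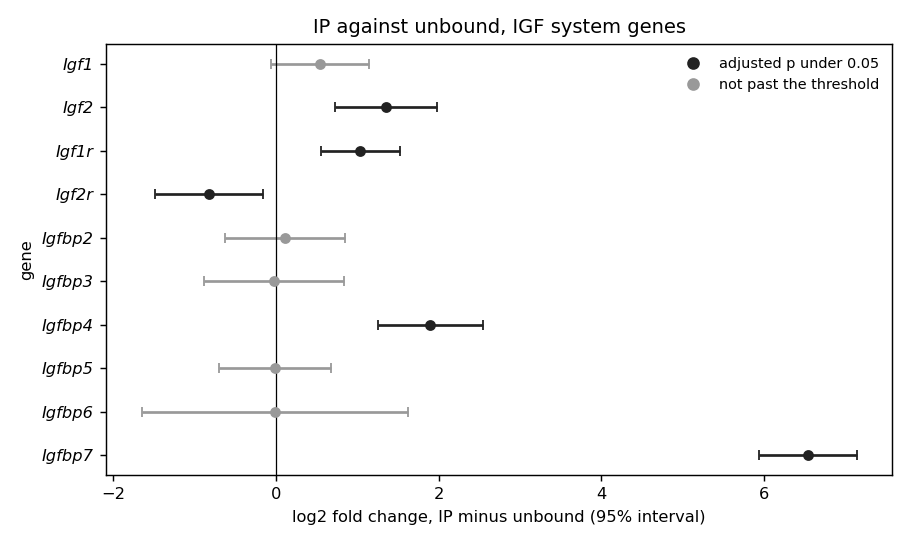
Log2 fold change of IP over unbound for each of the 10 genes with its 95% interval from edgeR's quasi-likelihood fit; dark points passed an adjusted p of 0.05. Igfbp7 lies at 6.53, far to the right of Igfbp4 (1.90), Igf2 (1.36) and Igf1r (1.04), and Igf2r lies at -0.82.

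The make-up of the binding protein RNA differed between the groups. Levels of different genes were compared as CPM per kilobase of merged exons in GENCODE M21, since longer transcripts give more reads. On that scale Igfbp7 made up 90.9%, 92.9% and 87.9% of the summed level of the 6 binding proteins in IP 1, 2 and 4, a mean of 90.6% ± 2.50 (SD, n = 3). In unbound it made up 12.4%, 9.58%, 15.8% and 11.6%, a mean of 12.4% ± 2.60 (SD, n = 4). There Igfbp2 took the largest mean share (28.6% ± 5.22), followed by Igfbp5 (23.3% ± 9.43) and Igfbp3 (18.9% ± 5.66). The summed level of the 6 was 245 ± 24.9 CPM per kilobase in IP and 19.7 ± 3.44 in unbound. Without Igfbp7 the sums were 22.6 ± 3.77 and 17.3 ± 3.36, and the ranges of the groups overlapped.

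**Figure D3:**
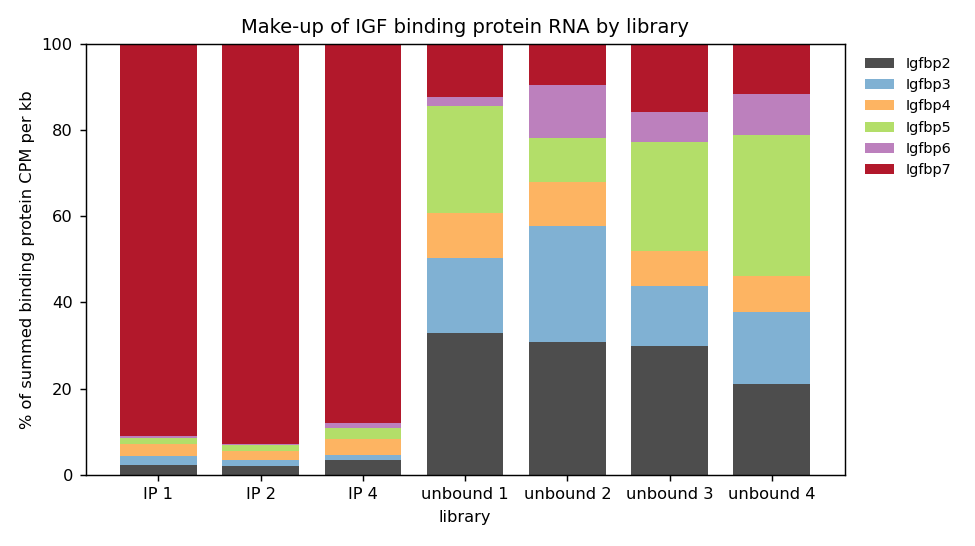
Share of each of the 6 binding proteins in their summed CPM per kilobase, as stacked bars for each library. Igfbp7 fills 87.9% to 92.9% of the IP bars and 9.58% to 15.8% of the unbound bars.

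Of the ligands, Igf2 was higher in IP and Igf1 did not pass the test. Igf2 had 176, 135 and 206 CPM in IP 1, 2 and 4 and 41.6, 70.4, 65.1 and 92.4 CPM in unbound 1 to 4. Every IP library lay above every unbound library, with a gap between IP 2 and unbound 4. Its log2 fold change was 1.36 ± 0.28 (adjusted p = 0.00375), a 2.56-fold difference. Igf2 lies on chromosome 7 from 142650766 to 142666816 (minus strand). The antisense gene Igf2os, which overlaps it on the other strand (142659693 to 142670356), had 50, 49 and 7 counts in IP and 0, 0, 4 and 2 in unbound, against 3316 to 13197 counts of Igf2.

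Markers of the choroid plexus and the meninges are given beside Igf2, which these tissues are known to express. Ttr, the transthyretin gene that marks the choroid plexus, had 82.5, 10.2 and 237 CPM in IP 1, 2 and 4 and 4.85, 0.26, 32.1 and 6.58 CPM in unbound. Of 10 choroid plexus and ependymal markers 8 were tested, and 3 rose and 1 fell. The summed level of the 10 was 167, 95.05 and 303 CPM in IP 1, 2 and 4 and 54.4 to 85.6 CPM in unbound. Ttr made up much of the sum in IP 4, and without Ttr the other 9 summed to 84.8, 84.8 and 66.97 CPM in IP 1, 2 and 4 and to 47.8 to 60.7 CPM in unbound. Among the IP libraries, Ttr and Igf2 were thus both highest in IP 4, while the other 9 together were lowest there. Among the unbound libraries, Ttr was highest in unbound 3 and Igf2 in unbound 4. Of 10 fibroblast and meningeal markers 6 rose and none fell, and their sum was 89.7, 96.7 and 119 CPM in IP 1, 2 and 4 and 24.9 to 50.4 CPM in unbound. Within each group this sum was highest in library 4, as was Igf2. The part of these cells in the Igf2 level was not tested.

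Igf1 had 26.3, 30.2 and 38.2 CPM in IP 1, 2 and 4 and 28.4, 14.4, 20.7 and 22.8 CPM in unbound 1 to 4. The groups overlapped through unbound 1, which lay above IP 1. The log2 fold change was 0.55 ± 0.27 with a 95% interval of -0.05 to 1.15 (adjusted p = 0.134). Within the index GTGAAA libraries it was 0.83 (adjusted p = 0.0106), a fit that holds only IP 4 and takes its spread from the unbound pair, so that this p rests on an IP group of 1 library. Per kilobase, Igf2 exceeded Igf1 in all 7 libraries, with log2 ratios of Igf1 to Igf2 of -3.36 ± 0.29 in IP and -2.54 ± 0.77 in unbound. This ratio did not differ past the threshold between the groups (difference -0.82, exact permutation test over 35 splits, 2-sided p = 0.143, adjusted p = 0.143).

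The 2 receptors moved in opposite directions. Igf1r, the signalling receptor, had 192, 197 and 185 CPM in IP 1, 2 and 4 and 119, 93.7, 78.8 and 80.6 CPM in unbound 1 to 4. The IP libraries lay close together and above every unbound library. Its log2 fold change was 1.04 ± 0.22 (adjusted p = 0.00397), a 2.06-fold difference. Within index ACAGTG it was 0.87 and missed the threshold (adjusted p = 0.0916). Within index GTGAAA it was 1.23, again from IP 4 alone. Igf1r lies on chromosome 7 from 67952827 to 68233668 (plus strand).

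Igf2r, the receptor that clears IGF2, had 8.66, 11.1 and 11.8 CPM in IP 1, 2 and 4 and 22.5, 11.5, 20.6 and 19.6 CPM in unbound 1 to 4. Unbound 2 fell among the IP libraries and the other 3 unbound libraries lay well above them. The log2 fold change was -0.82 ± 0.30 with an adjusted p = 0.0491, just inside the threshold, and 13 of 18 alternative analyses did not call it. Without unbound 2 it was -0.99 (adjusted p = 0.00707), and leaving out IP 4 as well gave -1.08 (adjusted p = 0.00796). Leaving out IP 1 gave -0.68 (adjusted p = 0.181), leaving out IP 2 gave -0.85 (0.119) and leaving out IP 4 gave -0.90 (0.0726), and without unbound 1, 3 or 4 adjusted p was 0.0884, 0.11 and 0.0943. The direction was the same in all 18.

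Igf2r lies on chromosome 17 from 12682406 to 12769664 (minus strand), and the long noncoding RNA Airn overlaps 28354 bases of it on the other strand. Airn had 5.31, 10.6 and 2.57 CPM in IP and 0.53, 2.54, 1.56 and 1.82 CPM in unbound, and it rose by 1.94 ± 0.61 on the log2 scale (adjusted p = 0.0268). The strand setting of the counting is not given in the sources used here, so reads of the shared stretch cannot be assigned with certainty. Reads that matched more than 1 gene were left uncounted and made up 1.43% to 1.63% of the reads in the IP files and 7.26% to 11.5% in the unbound files, and their part in the Igf2r and Airn values was not tested.

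Within a library the ratio of the receptors needs no scaling between libraries. Per kilobase, the log2 ratio of Igf1r to Igf2r was 4.11, 3.79 and 3.61 in IP 1, 2 and 4. In unbound 1 to 4 it was 2.04, 2.67, 1.58 and 1.68. The groups did not overlap, and the difference of the means was 1.85 (exact permutation test over 35 splits, 2-sided p = 0.0286, the smallest this design allows, adjusted p = 0.0857 over 3 ratios). Expressed as folds, Igf1r stood 14.3 times above Igf2r in IP and 3.97 times in unbound. The insulin receptor gene Insr, which can pair with Igf1r in hybrid receptors, averaged 94.5 ± 8.09 CPM over the 3 IP libraries. Over the 4 unbound ones it averaged 74.2 ± 5.18 CPM (SD). Its groups did not overlap, but it was not called by edgeR's test (log2 fold change 0.35 ± 0.20, adjusted p = 0.181). The log2 ratio of Insr to Igf1r was -0.73 ± 0.14 in IP and -0.02 ± 0.36 in unbound, a difference of -0.71 (exact permutation, 2-sided p = 0.0571, adjusted p = 0.0857). In this ratio too the groups did not overlap. Neither ratio passed the threshold after adjustment, and none could have passed alone. The smallest possible p of this permutation test, 0.0286, becomes 0.0857 when adjusted over 3 ratios, unless another ratio also reaches it.

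**Figure D4:**
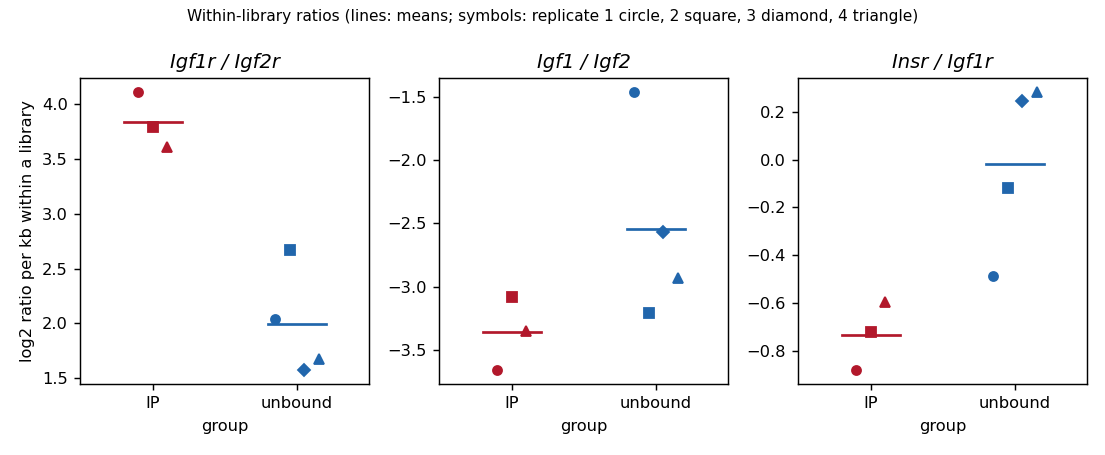
Log2 ratios per kilobase within each library, for Igf1r to Igf2r, Igf1 to Igf2 and Insr to Igf1r; points are libraries and lines group means. The Igf1r to Igf2r ratio is at least 3.61 in IP and at most 2.67 in unbound, and the other 2 ratios are lower in IP on average.

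Ordered by level per kilobase, the 10 genes stood differently in the 2 groups. In IP, Igfbp7 (222 ± 28.6 CPM per kilobase) came first, then Igf2 (32.9 ± 6.78), Igf1r (16.8 ± 0.55) and Igfbp4 (6.85 ± 1.35), and these 4 did not overlap each other over the libraries. Igfbp2 (6.17 ± 1.10), Igfbp5 (4.30 ± 1.30), Igfbp3 (3.78 ± 1.33) and Igf1 (3.19 ± 0.61) followed, each overlapping its neighbour, as did Igfbp4 and Igfbp2. Igfbp6 (1.54 ± 1.05) and Igf2r (1.18 ± 0.18) came last. In unbound, Igf2 (12.8 ± 3.98) came first and Igf1r (8.14 ± 1.61) next, and their ranges overlapped. Igfbp2 (5.71 ± 1.74), Igfbp5 (4.33 ± 1.25) and Igfbp3 (3.83 ± 1.86) came next, and the other 5 lay between 2.40 for Igfbp7 and 1.55 for Igfbp6, all with overlapping ranges. Errors are SD over 3 IP and 4 unbound libraries, and the levels rest on exon lengths from GENCODE and not from the submitters' annotation.

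Other genes were ranked by how closely their log2 CPM, centred on the mean of the 2 groups, followed each member over the 7 libraries, among 11612 genes with a mean of at least 5 CPM. Nearest to Igfbp7 were Gimap1 and Slco1a4, the latter an organic anion transporter of the blood-brain barrier, whose largest differences in any library were 0.47 and 0.48 on the log2 scale. Nearest to Igfbp4 were the Wnt-responsive transcription factor gene Lef1 (0.35) and the Notch glycosyltransferase gene Lfng (0.35). Nearest to Igf2 were Jup, which encodes the junction protein plakoglobin (0.25), and Tom1l1 (0.32). Nearest to Igf1r were the splicing factor gene Rbm22 and Nab1 (both 0.15), to Igf2r Txndc16 (0.10) and Usp32 (0.15), and to Igf1 Cic and Snx29 (both 0.13). Nearest to Igfbp2 was Hdac5 (0.21), to Igfbp3 Exosc5 (0.13), to Igfbp5 Bcorl1 (0.14) and to Igfbp6 Mir6236 (0.49). These are descriptions over 7 libraries of 2 groups.

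Beyond the members, a list of 39 other genes of the insulin and IGF pathway held 32 tested genes, of which 9 rose and 3 fell in IP, with a median log2 fold change of -0.04. The shares of all tested genes called were 20.5% and 18.9%, as above. The adaptor gene Shc1, which links activated receptors to Ras, rose most, with 152, 153 and 126 CPM in IP 1, 2 and 4 and 9.06, 9.71, 13.7 and 9.87 CPM in unbound 1 to 4. Its groups were far apart, with a log2 fold change of 3.76 ± 0.24 (adjusted p = 1.75e-06). Of the insulin receptor substrates, Irs1 and Irs2 were not called and Irs4 fell. Irs1 had 80.3 ± 11.9 and 54.8 ± 23.2 CPM in IP and unbound (adjusted p = 0.206), and Irs2 had 39.2 ± 6.62 and 44.5 ± 13.0 CPM (adjusted p = 0.637). Irs4 had 11.7 to 13.2 CPM in IP and 17.03 to 35.9 CPM in unbound, and fell by 0.96 on the log2 scale (adjusted p = 0.0233).

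Genes that act downstream of the receptors and their adaptors were among those called. Foxo1, a transcription factor that AKT keeps out of the nucleus, had 174, 187 and 168 CPM in IP and 33.2, 26.2, 28.3 and 39.7 CPM in unbound. The groups did not overlap, and the log2 fold change was 2.47 ± 0.22 (adjusted p = 1.45e-05). Its relative Foxo3 rose by 1.24 ± 0.29. Among the kinases, Akt2 rose by 1.22 ± 0.21 and Akt1 by 0.61 ± 0.20 (adjusted p = 0.0343). The PI3-kinase regulatory subunits Pik3r1 and Pik3r2 rose by 0.99 ± 0.26 and 0.79 ± 0.22, and Tsc1, an inhibitor upstream of mTOR, fell by 0.79 on the log2 scale (adjusted p = 0.0243). Akt1 lost its call without any 1 library other than unbound 2 (adjusted p between 0.0592 and 0.111), Pik3r2 without IP 1 or IP 2 (0.0734 and 0.0737) and Pik3r1 without IP 2 (0.0617). Tsc1 lost its call without IP 1, IP 2, unbound 3 or unbound 4 (0.0938, 0.102, 0.0641 and 0.0532), and Irs4 without any IP library (0.0914, 0.0815 and 0.0507).

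**Figure D5:**
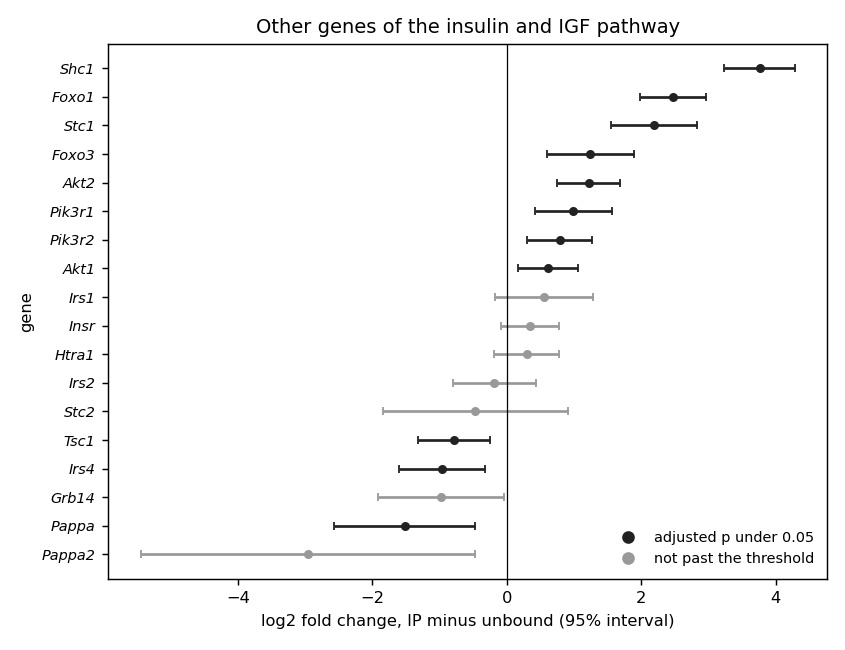
Log2 fold change of IP over unbound, with its 95% interval, for the 18 tested genes of the insulin and IGF pathway list that are described by name, ordered by value; dark points passed an adjusted p of 0.05. Shc1 (3.76), Foxo1 (2.47) and Stc1 (2.18) lie highest, and Pappa2 (-2.96, not called) lies lowest.

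Proteases that cut IGF binding proteins release the bound ligand, and stanniocalcins inhibit the pappalysin proteases. Pappa, which encodes the IGFBP4 protease PAPP-A, had 1.27, 2.47 and 4.85 CPM in IP 1, 2 and 4 and 6.77, 7.52, 11.6 and 6.95 CPM in unbound 1 to 4. The groups did not overlap, and it fell by 1.52 on the log2 scale (adjusted p = 0.0267). That call was lost without IP 1, IP 2 or unbound 3 (adjusted p = 0.0947, 0.103 and 0.078). The stanniocalcin gene Stc1 moved the other way, with 28.4, 45.9 and 26.8 CPM in IP and 9.47, 7.61, 5.62 and 6.92 CPM in unbound. Every IP library lay above every unbound one (log2 fold change 2.18 ± 0.29, adjusted p = 0.000219).

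Pappa2 ranged from 0.09 to 1.40 CPM in IP and from 0.24 to 7.64 CPM in unbound, where unbound 2 was the lowest and the other 3 had at least 4.66 CPM, and did not pass (log2 fold change -2.96 ± 1.13, adjusted p = 0.0579). Stc2 had 1.34 ± 0.81 CPM in IP and 1.85 ± 0.86 in unbound (adjusted p = 0.584). The serine protease gene Htra1 averaged 18.9 ± 0.32 CPM over the IP libraries and 15.4 ± 0.33 CPM over the unbound ones. Its groups did not overlap, but its log2 fold change of 0.30 ± 0.22 was not called (adjusted p = 0.308). Igfbp1, the binding protein next to Igfbp3 on chromosome 11 and 3539 bases from it, was too low to test and is named here after its values were seen. It had 20 and 9 counts in IP 1 and 2 and 0 counts in IP 4 and in every unbound library, which allows up to 0.059 CPM in IP 4 and between 0.0376 and 0.0569 CPM in unbound.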

How the data were processed

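The authors' deposited files hold whole-number read counts per gene symbol, 1 file per library. The submitters' processing notes name STAR 2.0.0e, HTSeq and the build mm10. Which annotation and strand setting the counting used is not given in these sources. No IP library with the number 3 entered these fits. The 6 rows that name no gene were left out. They held reads outside any gene (13.4% to 18.6% of the reads in the IP files, 11.3% to 12.9% in unbound), reads on more than 1 gene and reads aligned to more than 1 place (33.0% to 39.6% and 17.6% to 34.6%). Counts in genes were 52052340 to 76114634 per library, so 3 counts stand for 0.0376 to 0.059 CPM, and this floor covers counting error only.

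Counts were tested in R 4.3.3 with edgeR 4.0.16 (filterByExpr, TMM, robust quasi-likelihood test, 2-sided), which kept 17654 genes, and adjusted by Benjamini-Hochberg. The script was tested on simulated data. Gene positions and exon lengths came from GENCODE M21 (GRCm38, the build named mm10), and all 10 members matched a RefSeq promoter entry. Ratios within libraries used counts plus 0.5 and exact permutation tests. Alternatives were RLE scaling, library size only, other low-count filters, DESeq2 1.42.0, limma voom 3.58.1, blocking on replicate number, a term for the index, fits within each index, and leaving out libraries. No pair of libraries agreed within sampling noise (chi-square per degree of freedom at least 77.7). The members, gene lists and tests were chosen with earlier results of these data known. Named from the pathway list were the genes past the threshold that moved by 1 or more on the log2 scale, either way, at a mean of 1 CPM or more (at most 8 each way), with Insr, Irs1, Irs2, the proteases and their inhibitors whatever their values. Akt1, Pik3r1, Pik3r2, Tsc1, Irs4 and Igfbp1 were named after their values were seen. Some genes of the pathway list, which its counts include, are not reported here by name. Of the 5 erythroid markers 3 had a row, and all 3 fell; of 10 astrocyte markers 6 rose and none fell. For each member the 2 most similar genes were found, passing over predicted genes (Gm followed by digits, or Rik).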

Additional observations from a re-analysis of the deposited data

Results flagged for a closer look

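Values of the unbound group (4 libraries) were searched for a library that stood apart by Dixon's test at its 95% level, over 42 genes and 3 ratios. By chance about 1 in 20 groups is marked this way, and 2 of 45 were. Grb14, which encodes an adaptor that inhibits the insulin receptor, had 111 CPM in unbound 2 against 33.7 to 36.8 CPM in the other 3 unbound libraries. Pappa had 11.6 CPM in unbound 3 against 6.77 to 7.52 CPM in the others. No IGF member was marked, and the IP group of 3 was not tested.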

How the results depend on the processing

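Igf2, Igfbp4 and Igfbp7 were called as higher in all 18 alternatives, of which the fit within index GTGAAA has a single IP library, with log2 fold changes of 1.18 to 1.54, 1.45 to 2.55 and 6.35 to 6.66. Igf1r was called in 17, all but the fit within index ACAGTG, and its log2 fold changes over all 18 were 0.87 to 1.23. The number of members called lower, 1, became 0 without a low-count filter, with limma voom, with scaling by RLE or by library size alone, the replicate block, the index sequence as a covariate, within index ACAGTG, and over the single libraries left out (0 to 1). The number of members called higher stayed between 3 and 5.

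Pathway genes called lower, 3 in the analysis reported, numbered 5 with DESeq2, 1 within index ACAGTG, 8 without both IP 4 and unbound 2 (an alternative chosen after seeing the data), and 0 to 6 without single libraries: 0 without IP 1 or IP 2, 1 without unbound 3 and 6 without unbound 2. Pathway genes called higher, 9, numbered 4 within index ACAGTG. Over all genes, 3622 higher and 3328 lower calls became 2190 and 1650 within index ACAGTG, and lower calls ran from 1751 to 3632 without single libraries, the lowest being 1751 without IP 2 and 1899 without IP 1. The cause of these shifts was not tested.

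Library size only moved the median log2 fold change of all genes by 0.10. The 3 ratios kept their direction, and length cancels from their differences by construction. Same-numbered IP and unbound libraries did not deviate together in all pairs (correlations over genes of -0.03, 0.04 and 0.16 for numbers 1, 2 and 4). So few pairs cannot decide whether equal numbers mark the same homogenate, and the analysis reported did not pair them. IP 2 and IP 4 correlated best with their own number, and IP 1 with unbound 2. With the replicate block 3154 genes were called higher and 2618 lower, with 4 members higher and 0 lower, and Igf2r had -0.72 (adjusted p = 0.158). The paired mean differences of the ratios were 1.71, -0.83 and -0.62 for Igf1r to Igf2r, Igf1 to Igf2 and Insr to Igf1r. Igfbp1 had too few counts to be tested, and Igfbp6 had 36 to 192 counts per library.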
